A study of Mus musculus with 2 samples.

Results

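The cells described here carry transcripts of Cd8b1, the gene of the CD8 beta chain, in a dataset sorted from embryonic mouse thymus. They were selected on the measured counts themselves: a cell barcode needed at least 3 unique molecular identifiers (UMIs, each standing for 1 captured transcript) of Cd8b1, besides at least 500 detected genes, at most 10% mitochondrial UMIs and at most 1 UMI of Krt8, Krt18 and Prss16 together. Of 6057 barcodes 5187 passed the general filters, and 84 of these met the Cd8b1 rule. Both samples came from 5x polychromILC mice, a strain whose deposited count table carries rows for fluorescent and surface reporters. One sample was E15.5_DN1 and the other E19.5_DN1, named for their embryonic day, with 1 library each. Both were labelled as the sorted DN1 population of the embryonic thymus, with neither the sort gates nor the number of embryos stated. The extraction label describes a detergent lysis of sorted cells to nuclei before 3′ library preparation, while the 84 cells held a median of 3.77% mitochondrial UMIs.

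The count table joins both libraries and tells them apart only by a barcode suffix, 1 or 2, which no label ties to a stage. Cells with Cd8b1 therefore cannot be assigned to E15.5 or E19.5, and no comparison between stages was made. All 84 carried suffix 2, where they formed 2.54% of 3303 kept cells (Clopper-Pearson 95% interval 2.03 to 3.14%). In suffix 1 none of 1884 kept cells qualified. A count of 0, taken as up to 3 counts, allows a share of up to 0.159%, the Clopper-Pearson upper bound is 0.196%, and the highest Cd8b1 count there was 1 UMI. With 1 library per suffix no difference has a replicate check, so values are given with intervals that cover counting error only and without p-values. The suffixes shared 25 barcode sequences, and no Cd8b1 cell was among them.

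In the alpha-beta lineage a thymocyte passes from a double-negative stage, with neither CD4 nor CD8, through rearrangement of the T cell receptor beta gene and a burst of division to a double-positive stage with both coreceptors. RAG1 and RAG2 cut the receptor genes, the polymerase encoded by Dntt adds bases at the joints, and the surrogate alpha chain encoded by Ptcra pairs with the new beta chain at the checkpoint called beta-selection. Double-positive cells then stop dividing, rearrange the alpha gene and survive only if their receptor is selected. DN1 is the earliest of the double-negative stages by surface phenotype, before commitment to the T lineage.

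The other markers of alpha-beta thymocytes were each detected in most of these cells. Cd8a, the partner chain of the CD8 coreceptor, was detected in 83 of 84 cells. Arpp21, an RNA-binding protein gene used as a thymocyte marker, was detected in 83, Bcl11b, a T-commitment factor, in 79, and Cd4, the helper coreceptor, in 51. Counting Cd8b1, which the selection fixes in every cell, all 5 markers had a UMI in 48 cells, 4 of them in 32 cells and 3 in the remaining 4 cells. Arpp21 and Bcl11b were not limited to them, since Arpp21 was also detected in 366 of 687 early T progenitor-like and 21 of 23 DN2/DN3-like cells of the comparison groups defined in a later paragraph. Bcl11b was detected in 22 of 23 DN2/DN3-like and 135 of 140 gamma-delta T-like cells. Cd8a was detected in 4, 1 and 22 cells of the early T progenitor-like, DN2/DN3-like and gamma-delta T-like groups. In GRCm38 the coreceptor genes lie on chromosome 6, Cd8b1 at chr6:71322788-71337494 and Cd8a at chr6:71373427-71379173 on the plus strand, and Cd4 at chr6:124864692-124888221 on the minus strand.

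Promoters of 4 genes are shown because these genes carry the features that recur in the results: the other CD8 chain, the recombinase, the pre-T receptor chain and the joint polymerase. Each run holds 250 bases before and 50 after the annotated start on the gene's own strand, from RefSeq GRCm38.p6, and the capitals mark matches to an E-box (CANNTG), a RUNX motif (TGTGGT) or a TCF/LEF motif (CTTTGA), searched on both strands. The windows are chr6:71373177-71373476 for Cd8a, chr2:101649483-101649782 for Rag1, chr17:46763663-46763962 for Ptcra and chr19:41029025-41029324 for Dntt, with Rag1 and Ptcra on the minus strand.
Cd8a: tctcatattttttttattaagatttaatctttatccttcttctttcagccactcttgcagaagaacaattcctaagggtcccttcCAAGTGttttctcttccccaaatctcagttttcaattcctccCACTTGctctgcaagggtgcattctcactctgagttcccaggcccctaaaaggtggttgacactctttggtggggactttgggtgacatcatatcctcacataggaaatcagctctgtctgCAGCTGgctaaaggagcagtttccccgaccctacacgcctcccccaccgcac
Rag1: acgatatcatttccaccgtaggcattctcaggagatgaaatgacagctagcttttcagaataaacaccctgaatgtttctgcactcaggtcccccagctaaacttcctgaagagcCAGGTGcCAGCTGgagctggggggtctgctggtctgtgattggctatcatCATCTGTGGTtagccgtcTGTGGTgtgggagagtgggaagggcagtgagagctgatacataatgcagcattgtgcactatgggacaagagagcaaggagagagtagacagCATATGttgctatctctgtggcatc
Ptcra: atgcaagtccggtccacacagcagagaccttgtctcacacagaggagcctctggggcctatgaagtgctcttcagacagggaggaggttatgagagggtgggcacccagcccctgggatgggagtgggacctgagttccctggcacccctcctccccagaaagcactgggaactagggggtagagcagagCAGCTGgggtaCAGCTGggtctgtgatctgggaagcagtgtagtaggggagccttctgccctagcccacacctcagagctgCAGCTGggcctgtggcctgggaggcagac
Dntt: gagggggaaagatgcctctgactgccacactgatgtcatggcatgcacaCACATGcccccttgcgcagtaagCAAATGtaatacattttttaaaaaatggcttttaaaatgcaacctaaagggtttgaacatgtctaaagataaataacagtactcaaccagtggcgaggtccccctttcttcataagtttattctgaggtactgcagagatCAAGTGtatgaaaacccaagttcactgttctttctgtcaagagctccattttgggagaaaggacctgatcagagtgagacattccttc
An E-box match occurred 4 times in the Rag1 window and 3 times in each of the others. The Rag1 window also held 2 RUNX matches, 1 of which overlaps an E-box. None of the 4 windows held the TCF/LEF letters. Among 32851 promoter windows of the same length, 72.3% held an E-box, 16.8% the RUNX letters and 16.0% the TCF/LEF letters, so an E-box match is common to most promoters. A match describes letters only.

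Cd8b1 counts ran from 3 to 49 UMIs per cell with a median of 11. Most kept cells of suffix 2 were far from the threshold, since 3187 had no Cd8b1 UMI, 24 had 1 and 8 had 2. The 5 cells with 3 to 5 UMIs all had Cd8a, 4 had Arpp21 and 3 had Rag1. Of the 32 cells with 1 or 2 UMIs, 8 had Cd8a, 13 Arpp21 and 5 Rag1, at a median depth of 15160 UMIs against 5073 for the Cd8b1 cells. With no limit on Cd8b1, the gene had a UMI in 7 of 147 gamma-delta T-like cells (4.76%, 1.94 to 9.57%). The same held for 8 of the 695 cells of the early T progenitor-like rule (1.15%, 0.498 to 2.26%) and none of 23 DN2/DN3-like cells. With an equal number of UMIs drawn per cell, the shares were 0.68% (0.017 to 3.73%) of the 147 and 0.144% (0.0036 to 0.799%) of the 695. These sets can include selected cells, since 1 of the 84 held 1 Sox13 and 3 Blk UMIs, the genes of the gamma-delta T-like rule, besides 7 of Cd8b1. The shares are therefore not a background rate in cells that lack the gene.

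Depth varied widely within the 84 cells, from 1242 to 63343 UMIs, with 882336 UMIs in all. Cells were split by the proliferation genes Mki67 and Top2a, calling those with at least 5 UMIs of the pair cycling. The 25 cycling cells (29.8%, 20.3 to 40.7%) had a median of 16909 UMIs and held 56.8% of all UMIs, and the 59 others had a median of 3647. Another feature cut across this split, in that 9 cells held 3 or more UMIs of Nkg7, Fcer1g, Tyrobp, Il1rl1, Sox13 and Blk together, genes of natural killer, innate lymphoid or gamma-delta T cells. These 9 cells had a median of 20423 UMIs, held 29.1% of all UMIs, and 4 of them were cycling. Several results that lean on them are given for all 84 cells and for the 75 under this threshold, of which 21 were cycling and 54 were Mki67/Top2a-low. Others are given for all 84 only, among them Bcl2, Cd69 and Ccr7, whose UMIs lay mostly in the 9 cells. The threshold covers 6 genes only: 62 of the 75 had a UMI of the longer innate lymphoid and cytotoxic list, and 1 of them held 7 Icos, 7 Rora and 10 Il7r UMIs. The cycling threshold is on raw counts, so it sorts by depth too. Thinned to 2000 UMIs, Mki67/Top2a-low cells reached 40 G2/M-list and 33 S-list UMIs against medians of 39 and 11 in cycling cells, so some of them carried cell cycle transcripts.

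**Figure D1:**
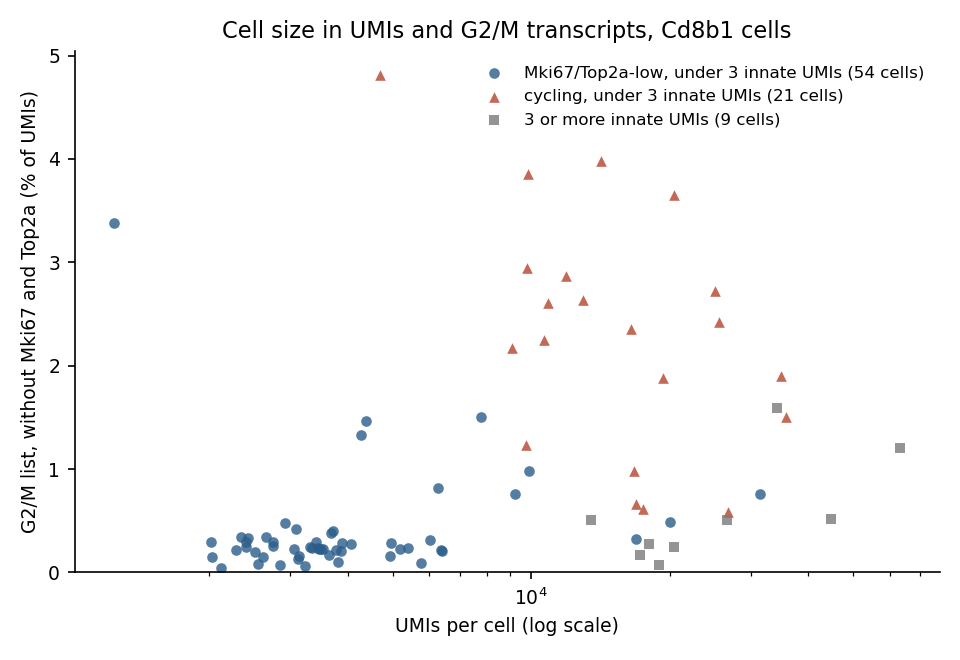
Each point is 1 Cd8b1 cell; the x axis gives its UMIs on a log scale and the y axis the percent of its UMIs from the G2/M gene list without Mki67 and Top2a. The 54 cells under both thresholds had a median of 3480 UMIs, the 21 cycling cells a median of 16449, and the 9 innate-gene cells all lie at 13495 UMIs or more.

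Among the recombination genes, Rag1 (chr2:101638282-101649501) was detected in 75 of 84 cells, with 0 to 16 UMIs and a median of 4. Rag2 (chr2:101624718-101632529) was detected in 33 cells, and every one of these also held Rag1, while 42 cells held Rag1 alone. Dntt (chr19:41029275-41059525) was detected in 52 cells at 0 to 8 UMIs with a median of 1. Ptcra (chr17:46755663-46763712) was detected in 37 cells at 0 to 16 UMIs with a median of 0. Of these cells, 20 held both Ptcra and Dntt, 17 held Ptcra alone and 32 held Dntt alone. In the early T progenitor-like cells, at a median depth of 30093 UMIs, Rag1 was detected in 26, Ptcra in 13 and Dntt in 3 of 687, but Rag2 in 173.

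The coreceptor transcripts were present together in most cells. All 51 cells with a Cd4 UMI also held Cd8a, 32 cells held Cd8a without Cd4, and 1 cell held neither. The Cd4 share of 60.7% rested on low counts, with a median of 1 UMI and at most 7. It fell to 37.3% (27.0 to 48.7%) when 83 cells were thinned to 2000 UMIs each and 1 shallower cell was left out, and 23 cells held 2 or more Cd4 UMIs. A cell without a Cd4 UMI was therefore not called CD8 single-positive here. The median depth was 4375 UMIs with Cd4 and 6281 without it, and 13 of the 51 and 12 of the 33 cells were cycling. The 12 cycling cells without Cd4 had a median of 16822 UMIs, so cells without a Cd4 UMI were not only shallow ones. Which stage they belong to was not tested. Among genes of later maturation, Ccr7, a chemokine receptor of mature thymocytes, was detected in 5 cells, and Il7r, the IL-7 receptor chain that double-positive cells lose, in 10 cells, 7 of them among the 9 with innate genes. The most abundant genes of the positive selection and maturation list, Cd52, Gimap6, Id3 and Klf2, were detected in 67, 48, 37 and 19 cells. Cd52 had 836 UMIs, of which 208 lay in the 75 cells under the innate threshold.

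Genes of the T cell receptor complex were detected in nearly all cells and varied in level. The CD3 chains Cd3g and Cd3d were detected in 84 and 83 cells at medians of 8 and 8.5 UMIs and up to 44 UMIs each, the kinase gene Lck in 83 and the TCF-1 gene Tcf7 in 84. Constant-region genes of the receptor itself were not analysed here, so alpha-beta and gamma-delta receptor chains could not be read directly. The survival gene Bcl2l1, typical of double-positive cells, was detected in 33 cells and Bcl2, typical of more mature and earlier cells, in 13. Gzma, which encodes granzyme A, was detected in 55 cells at a median of 1.5 UMIs, but 2 cells under the innate threshold reached 102 and 120 UMIs and 1 innate-gene cell reached 149. Gzma was also detected in 127 of 687 early T progenitor-like cells and in 97 of 140 gamma-delta T-like cells.

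**Figure D2:**
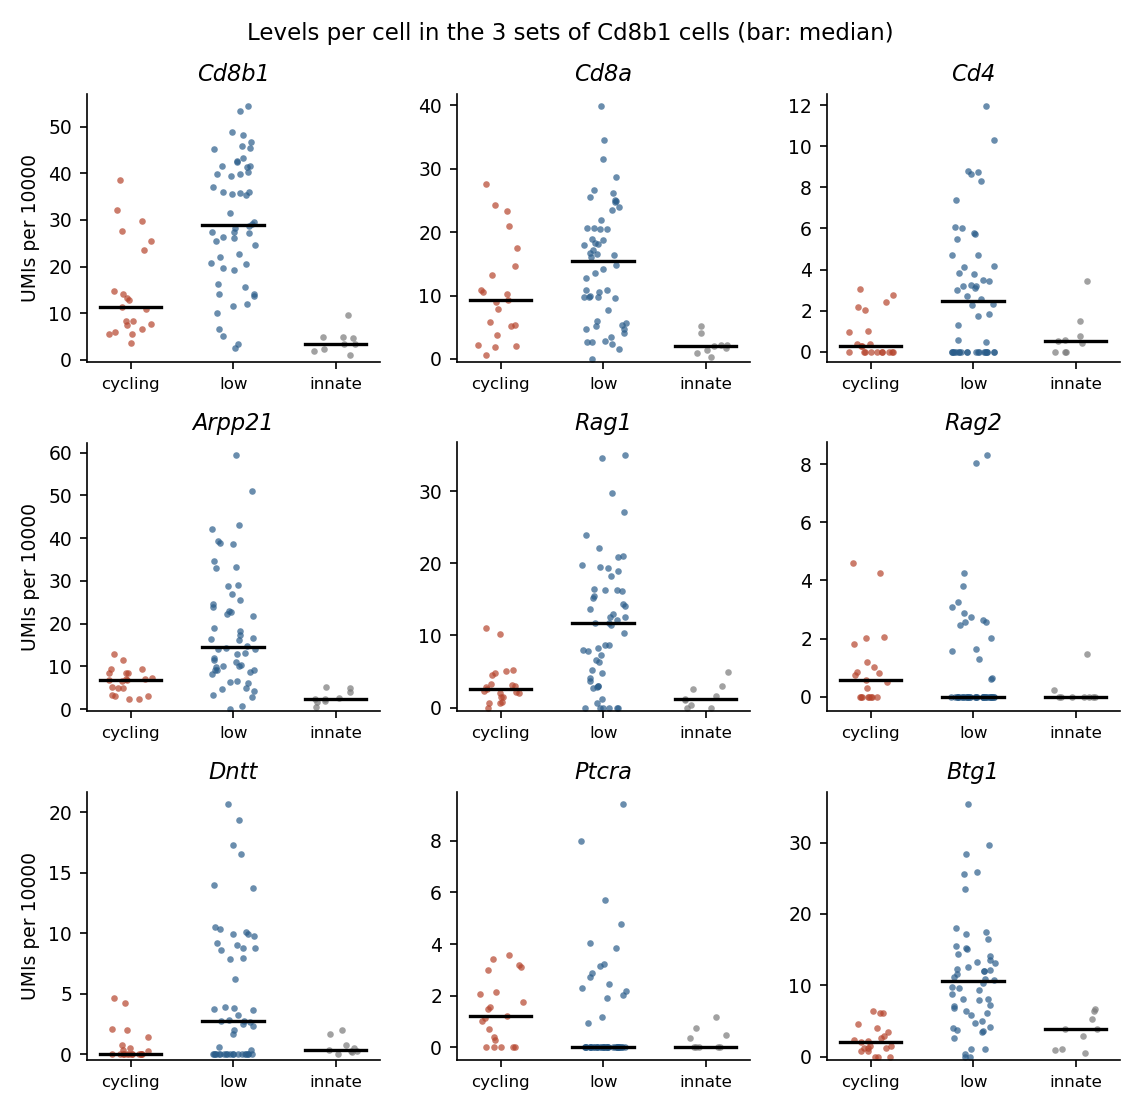
UMIs per 10000 UMIs of the cell for 9 genes in the 21 cycling cells, the 54 Mki67/Top2a-low and the 9 with innate genes; each point is 1 cell and the bar is the median. Cd8b1 is the gene of the selection, whose threshold on raw counts a shallow cell meets only at a high share, and Rag1 medians were 2.52, 11.7 and 1.17 in that order.

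To place the Cd8b1 cells, their summed counts were compared with 3 kinds of cells of the same suffix, chosen by gene rules with no Cd8b1 UMI. These were 23 DN2/DN3-like cells (at least 3 UMIs of Fbp1 and Khdc1a, genes of T-committing thymocytes), 140 gamma-delta T-like cells (Sox13 and Blk) and 687 early T progenitor-like cells (Spi1 and Bcl11a, transcription factors shut off at commitment). Levels are given as CPM, the summed UMIs of a gene scaled by all UMIs of its group. A gene was measured where both groups held at least 20 UMIs together, and was called where its CPM differed by more than 2-fold. A gene with no UMI in a group entered its ratio as 3 counts. Against DN2/DN3-like cells 10.9% of 7249 measured genes were called higher and 8.73% lower. Against gamma-delta T-like cells the shares were 5.81% and 9.13% of 8346 genes, and against early T progenitor-like cells 13.5% and 12% of 10975 genes. Median depth differed between these groups, at 49870, 15507 and 30093 UMIs in that order against 5073 in the Cd8b1 cells, and its part in the differences was not tested.

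**Figure D3:**
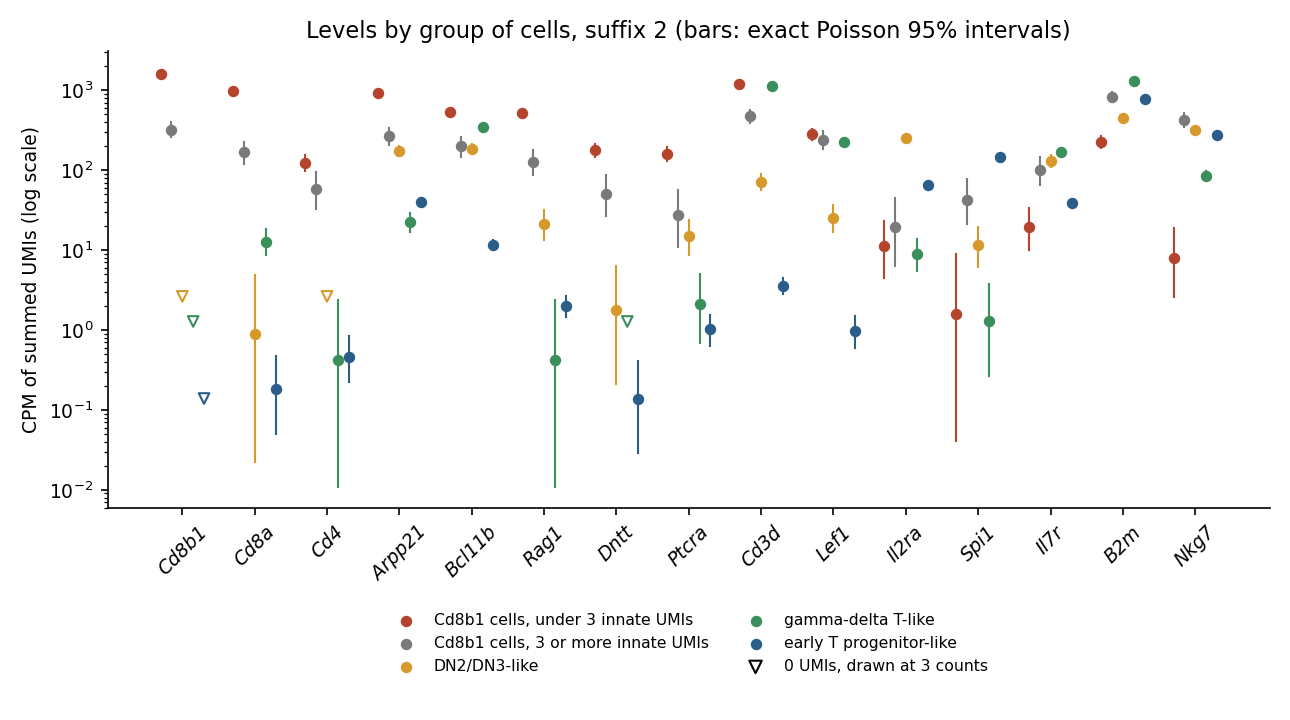
CPM on a log axis for 15 genes in the 75 Cd8b1 cells under 3 innate UMIs, the 9 at or above it and the 3 comparison groups; bars are exact Poisson 95% intervals and open triangles mark groups with 0 UMIs, drawn at 3 counts. Cd8b1 is at 0 in the comparison groups by rule, and Nkg7 separates the 9 cells by rule.

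The DN2/DN3-like cells held Ptcra in 3, Rag1 in 10 and Il7r in 22 of 23 cells. Against them the Cd8b1 cells had more recombinase and pre-T receptor transcript and little of the IL-2 receptor alpha chain. Rag1 stood at 409 CPM against 21.1 (log2 ratio 4.28, 3.68 to 4.94), Ptcra at 122 against 14.9 (3.04, 2.29 to 3.87) and Rag2 at 61.2 against 29.9 (1.04, 0.39 to 1.70). Dntt had 124 UMIs against 2, a log2 ratio of 6.32 (4.44 to 9.38). Cd4 had no UMI in the DN2/DN3-like cells and was at least 39.6-fold higher. Il2ra, the CD25 gene that marks DN2 and DN3 cells, was lower at 13.6 CPM against 255.6 (-4.23, -5.20 to -3.41). Of 12 measured genes of recombination and the pre-T receptor, 8 were called higher and 0 lower, with a median log2 ratio of 1.42 beside 0.03 for all measured genes.

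Genes of receptor signalling and of the double-positive stage were higher in the same comparison. Of 24 measured genes of the CD3 complex and receptor signalling, 19 were called higher and 0 lower (median 2.41). Cd3d stood at 980 CPM against 71.2 (3.78, 3.45 to 4.13), whereas Cd3g was nearly level at 1116 against 898 (0.31, 0.19 to 0.44). The adhesion receptor gene Cd2 and the costimulatory receptor gene Cd28 had no UMI in the DN2/DN3-like cells and were at least 61.9-fold and at least 51.6-fold higher. Of 19 measured double-positive thymocyte genes, 16 were called higher and 1 lower (median 3.39), among them the chromatin organiser Satb1 at 1016 CPM against 69.4 (3.87, 3.54 to 4.22) and the signalling adaptor Sh2d1a at 407 against 14.9 (4.77, 4.07 to 5.56). Ccr9, a homing receptor of thymocytes, stood at 328 against 5.27 (5.96, 4.82 to 7.42).

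Transcripts of growth and of the progenitor state were at or below the level of the DN2/DN3-like cells. Of 10 measured genes linked to growth at beta-selection, 3 were called lower and 0 higher (median -0.83), with the ribosome assembly gene Npm1 at 2508 CPM against 4386 (-0.81, -0.88 to -0.73). Of 10 measured stem and progenitor genes, 6 were called lower and 0 higher (median -1.55). Notch1, the receptor that drives commitment, did not pass 2-fold at 116 CPM against 134 (-0.21, -0.58 to 0.16), and 1 of 11 measured Notch pathway genes was called higher and 3 lower. The D cyclin Ccnd3, required for the division after beta-selection, was higher at 536 against 102 (2.40, 2.10 to 2.70), and the cell cycle inhibitor Cdkn1c had 77 UMIs against 2 (5.63, 3.73 to 8.71). Cpa3, a protease gene of mast cells and early progenitors, stood at 9.07 CPM against 430 (-5.57, -6.79 to -4.58) and Plac8 at 202 against 2267 (-3.49, -3.72 to -3.27). Without the 9 innate-gene cells Plac8 stood at 56.0 CPM (-5.34, -5.86 to -4.86).

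Against gamma-delta T-like cells, the other T lineage of the fetal thymus, CD3 transcripts were level while the recombination genes and the maturation genes moved in opposite directions. Of 25 measured genes of the CD3 complex and signalling, 4 were called higher and 2 lower, with a median of -0.08 beside 0.08 for all genes, and Cd3d stood at 980 CPM against 1142 (-0.22, -0.33 to -0.11). Lck was nevertheless higher at 662 against 153 (2.11, 1.92 to 2.30). Rag1 had 361 UMIs against 1, a log2 ratio of 9.91 (7.42 to 15.22). Dntt and Rag2 had no UMI in the 140 gamma-delta T-like cells and were at least 109.9-fold and at least 47.9-fold higher. Ptcra stood at 122 CPM against 2.13 (5.84, 4.58 to 7.5) and Arpp21 at 737 against 22.6 (5.03, 4.62 to 5.46). Bcl11b, which both lineages use, was close at 433 against 344 (0.33, 0.15 to 0.51).

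Of 25 measured genes of positive selection and maturation, 18 were called lower than in gamma-delta T-like cells and 1 higher, with a median of -1.46. Klf2, a factor of mature thymocytes ready to leave, stood at 88.4 CPM against 420 (-2.25, -2.60 to -1.92). Il7r stood at 43.1 against 167 (-1.95, -2.47 to -1.47) and the activation marker Cd69 at 30.6 against 108 (-1.82, -2.45 to -1.25). Bcl2 stood at 27.2 against 172 (-2.66, -3.32 to -2.07) and Bcl2l1 at 46.5 against 19.6 (1.25, 0.60 to 1.88), so these survival genes differed in opposite directions. The checkpoint receptor gene Pdcd1 had 1 UMI against 388. Of 13 measured genes of MHC class I and its peptide processing, 9 were called lower and 0 higher (median -1.12), with beta-2-microglobulin, B2m, at 400.1 CPM against 1318 (-1.72, -1.88 to -1.56) and H2-K1 at 179 against 845 (-2.24, -2.48 to -2.0). Of 8 measured gamma-delta T genes all were called lower (median -3.94), which the rule fixes for Sox13 and Blk and not for Maf, at 24.9 against 440.2 (-4.14, -4.82 to -3.54).

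In the 75 cells under the innate threshold, 7.01% of 8158 measured genes were called higher and 12% lower than in gamma-delta T-like cells. The maturation median was -2.33 with 18 of 24 genes lower and the MHC class I median -1.80 with 9 of 13 lower. B2m stood at 227 CPM (-2.54, -2.79 to -2.29) and Klf2 at 30.4 (-3.79, -4.53 to -3.14), both further below the gamma-delta T-like level than with all 84 cells. Il7r had 12 UMIs in 3 of the 75 cells, 10 of them in 1 cell. Gimap4 and Pdcd1 had no UMI in these 75 cells, at least 24.95-fold and at least 34.5-fold lower.

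Against early T progenitor-like cells, which the DN1 label would place at the start of the pathway, the T-lineage transcripts were higher and progenitor transcripts lower across the lists. Of 25 measured CD3 and signalling genes, 20 were called higher and 0 lower (median 2.84), with Cd3d at 980 CPM against 3.56 (8.10, 7.77 to 8.46). Of 19 T-lineage regulators 12 were called higher and 0 lower (median 2.03), including the TCF-1 relative Lef1 at 269.7 against 0.97 (8.12, 7.47 to 8.84). Of 18 stem and progenitor genes 17 were called lower and 0 higher (median -3.38), which the rule of the group fixes for Spi1 and Bcl11a. Mef2c stood at 3.40 against 150 (-5.46, -7.74 to -3.91) and Cd34, a surface marker of progenitors, at 6.80 against 156 (-4.52, -5.96 to -3.39). Cd34 had no UMI in the 75 cells under the innate threshold. The stem and progenitor list summed to 101 CPM in those 75 and to 366 in the 9 innate-gene cells. The remaining progenitor gene, the fetal RNA-binding protein gene Igf2bp3, was level at 74.8 CPM against 80.4. Of 50 measured G2/M genes, 21 were called higher and 0 lower (median 0.87), but thinned to 2000 UMIs the median cell of both groups held 7 G2/M-list UMIs, and the 25 cycling cells hold most UMIs of the summed Cd8b1 cells.

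**Figure D4:**
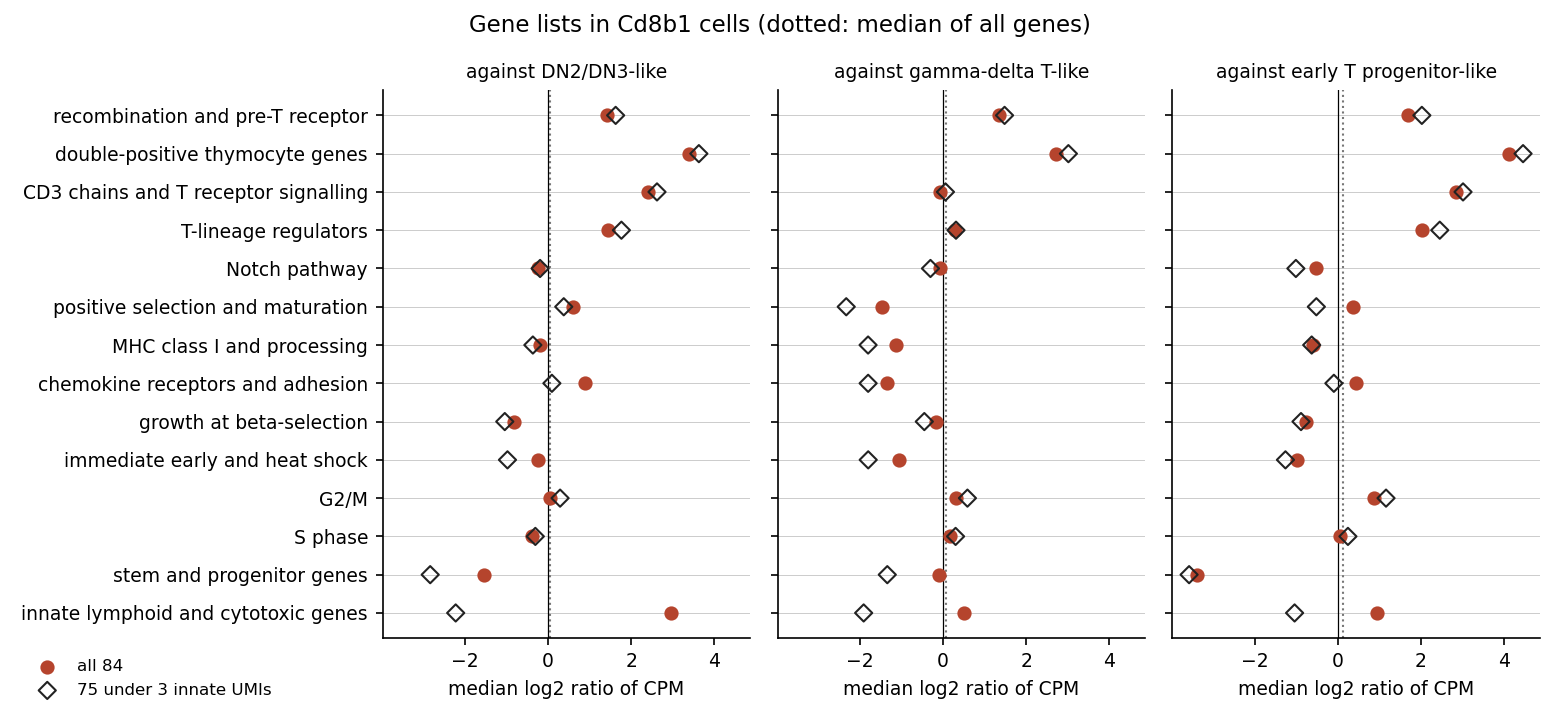
Median log2 ratio of CPM for 14 gene lists against each comparison group, with circles for all 84 Cd8b1 cells, diamonds for the 75 under 3 innate UMIs and a dotted line at the median of all measured genes. The innate list lies at 2.95 against DN2/DN3-like cells with all cells and at -2.22 without the 9, and the recombination list lies at 1.42 against DN2/DN3-like cells.

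Against all 3219 other kept cells of suffix 2, 16.8% of 12093 measured genes were called higher and 11.9% lower, with a median over all genes of 0.14. The higher share and the median can include genes with no UMI in the Cd8b1 cells, entered as 3 counts. Over the 882336 UMIs of these cells, 3 counts give a higher CPM than 20 counts over the 58937866 UMIs of the others. Such genes were not counted separately, so the 16.8% is not a share of genes detected at a higher level. Besides the markers, the largest ratios by their lower bound included Dntt at 141 CPM against 0.271 (9.02, 8.26 to 9.87), Rag1 at 409 against 2.14 (7.58, 7.28 to 7.88) and Ptcra at 122 against 1.44 (6.41, 5.98 to 6.83). Chrna9, an acetylcholine receptor subunit gene, followed the same pattern at 134 CPM against 0.543 (7.94, 7.37 to 8.56), and was detected in 23 of the 3219 other cells. Ly6a, the Sca-1 gene, stood at 9.07 against 360.4 (-5.31, -6.52 to -4.33). Among markers of other cell types, Krt5, Krt14, Psmb11 and Foxn1 of thymic epithelium, Cd79a, Ms4a1, Ebf1, Pax5 and Igll1 of B cells and 7 of 8 mast cell genes, all but Cpa3, had no UMI in the 84 cells. Prss16, also at 0, is limited by the filter. The B lineage genes Cd79b and Vpreb1 had a UMI in 19 and 6 cells. The myeloid and dendritic list of 10 genes summed to 341 CPM against 699 in the other cells, at 0 to 22 UMIs per cell, with Csf1r, Elane, Itgax and Siglech at 0 and most UMIs from Cst3 and Bst2. The erythroid list of 7 genes summed to 18.1 CPM against 298. The epithelial list was higher than in the other cells, at 180 CPM against 41.3, and had a UMI in 66 of 84 against 1344 of 3219 cells. It summed to 0 to 11 UMIs per cell with a median of 1, of which 129 UMIs were Ctsl, a protease gene at 146 CPM against 16.8 and also detected in 681 of the other cells.

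Cycling Cd8b1 cells were compared with the Mki67/Top2a-low cells. Among 5098 measured genes 6.61% were called higher and 8.45% lower in the 25 cycling cells. Of 44 measured G2/M genes without the pair used for the split, 42 were called higher, with a median of 2.96 beside -0.09 for all genes. All 11 genes of the histone and replication-linked list were called higher (median 2.60), and 17 of 40 S-phase genes (median 0.76). These lists share their biology with the genes of the split and describe it. Nusap1, a spindle gene, had 213 UMIs in cycling cells and 0 in the others. Thinned to 2000 UMIs per cell, cycling cells had a median of 39 G2/M UMIs and the others 5.5.

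Among the 75 cells under the innate threshold, Dntt, Rag1, Cd4 and Ccr9 took a smaller share of UMIs in cycling cells, where 7.65% of 4106 measured genes were called higher and 9.84% lower. Dntt stood at 55.7 CPM in the 21 cycling cells and at 342 in the 54 others (log2 ratio -2.62, -3.40 to -1.91), Rag1 at 287 against 846 (-1.56, -1.91 to -1.22), Cd4 at 58.5 against 211 (-1.85, -2.65 to -1.10) and Ccr9 at 217 against 635 (-1.55, -1.96 to -1.15). The antiproliferative gene Btg1 stood at 212 against 861 (-2.02, -2.42 to -1.64) and Ly6d, a surface antigen gene, at 13.9 against 154 (-3.47, -5.17 to -2.13). Ly6d was not particular to the Cd8b1 cells. Thinned, it was detected in 12.0% of them, 13.0% of DN2/DN3-like, 13.8% of early T progenitor-like and 0 of 140 gamma-delta T-like cells. Ptcra did not follow Dntt: it stood at 153 CPM in cycling cells and 173 in the others (-0.18, -0.77 to 0.42), and Rag2 at 77.9 against 75.2 (0.05, -0.83 to 0.96). Of 23 measured CD3 and signalling genes 11 were called lower in cycling cells and 0 higher (median -0.82). Cd8a was nearest to level among the coreceptor genes at 838 against 1147 (-0.45, -0.69 to -0.22).

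The direction per cell depends on the gene, because a cycling cell held several times the UMIs of the others. The median cycling cell had 17 Cd8b1, 14 Cd8a, 4 Rag1, 2 Ptcra and 0 Dntt UMIs. The median Mki67/Top2a-low cell had 10 Cd8b1, 6 Cd8a, 4 Rag1, 0 Ptcra and 1 Dntt UMIs. Cd8a was thus higher per cell and lower as a share of UMIs in cycling cells, Rag1 was equal per cell, and Dntt was lower on both measures, with 20 UMIs over 21 cells against 91 over 54. After thinning, Dntt was detected in 2 of 25 cycling cells (8%, 0.984 to 26%) and in 28 of 58 others (48.3%, 35.0 to 61.8%). Rag1 was detected in 28% and 70.7%, Cd4 in 20% and 44.8%, and Ptcra in 20% of the cycling cells (6.83 to 40.7%) and in 9 of the 58 others (7.35 to 27.4%). These 25 and 58 cells include innate-gene cells, unlike the 21 and 54 above. Their intervals cover counting error over cells of 1 library only. The thresholds on raw counts that chose the cells and split them still act after thinning.

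Cell cycle regulators split between the sets. Ccnd3 stood at 476 CPM in the 21 cycling cells and at 823 in the 54 others (-0.79, -1.09 to -0.50). The Cdk inhibitor gene Cdkn1b stood at 148 against 293 (-0.99, -1.52 to -0.47), while Cdkn1c was at 136 against 86.5 (0.66, -0.08 to 1.44) and Cdkn2d at 315 against 271 (0.22, -0.22 to 0.66), both with intervals that include 0. Id3, a target of receptor signalling, stood at 52.9 against 256 (-2.27, -3.09 to -1.52), and Gimap6, a lymphocyte survival GTPase gene, at 27.8 against 271 (-3.28, -4.40 to -2.32). The thymidylate synthase gene Tyms was higher at 476 against 67.7 (2.81, 2.11 to 3.60).

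The 9 cells with innate genes carried nearly all transcripts of several innate genes found in the 84. They held 189 of 190 Xcl1 UMIs, 122 of 124 of Fcer1g, 161 of 167 of Tyrobp, 110 of 115 of Nkg7 and 89 of 92 of Klrd1, of which Xcl1 and Klrd1 did not enter the rule that chose them. The cells differed among themselves: 1 cell alone held 150 Xcl1 and 67 Klrd1 UMIs, 1 held 6 Il1rl1 and 15 Icos UMIs, and 1 held 3 Blk UMIs and 149 of Gzma. Every one of the 9 had Cd8a, at 2 to 7 UMIs, and 7 had Rag1. Cd8b1, the gene of the selection, ran from 5 to 17 UMIs in them. Summed Cd8a was at 167 CPM in the 9 against 969 in the 75 (-2.54, -3.02 to -2.09). Scrublet, a caller of droplets that caught more than 1 cell, marked 4 of the 9 and 0 of the other 75, and 87 of all 3303 kept cells of suffix 2. The part of droplets with more than 1 cell in these values was not tested.

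The reporter rows were read against the genes whose loci they follow. tagBFP had 143 UMIs in 20 cells and Id2 51 UMIs in 15 cells, but 121 and 42 of these lay in the 9 innate-gene cells. In the other 75 cells tagBFP was detected in 12 and Id2 in 8. mTeal had 23 UMIs in 20 cells and Rora 19 UMIs in 6 cells, with both in 4, so most mTeal-positive cells had no Rora UMI. hCD2 had 21 UMIs and Gata3 30. TdTomato had 16 UMIs in 14 cells against 382 Bcl11b UMIs in 79 cells, and 13 of the 14 also held Bcl11b. At these counts a reporter UMI was too rare to sort the Cd8b1 cells further.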

How the data were processed

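DN1 cells of embryonic thymus were profiled by droplet 3′ sequencing, per the labels' protocols. The deposited values are UMI counts per gene and barcode. The submitters' processing notes name Cell Ranger 3.0.2, STAR and the build GRCm38, and no source used here states how cells were called. A locus and the reporter that follows it are left out of the results, and T cell receptor constant-region genes were not analysed here.

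Counts of the cells of a group were summed and divided by their total to give CPM, with exact Poisson 95% intervals. Ratios carry conditional exact intervals, shares Clopper-Pearson intervals, and all cover counting error only. A count of 0 was set at 3 counts over the group for a fold. A cell that met more than 1 comparison rule entered none. Thinning drew 2000 UMIs per cell without replacement, and Scrublet (scanpy 1.11.5) was run per suffix as an alternative, where it marked 3 of 1884 cells of suffix 1. Splits, thresholds, scaling and filters were varied as alternatives. The functions were tested on simulated data.

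The members and the 28 gene lists were chosen with earlier results of these data known. Named genes are the markers, the 4 most abundant genes of each list, the 10 highest and 10 lowest of each of the 4 comparisons by the interval bound nearest 0 (at least 50 CPM in the higher group), rule genes and reporter loci. Bcl2, Bcl2l1, Btg1, Ccr7, Cd69, Gimap4, Icos, Il7r, Klrd1, Ly6d, Nusap1, Phlda1 and markers of other cell types at or near 0 lie outside that rule and were chosen after their values were seen. That reporters follow certain loci is knowledge of the strain. Positions are from GENCODE M21 on GRCm38. Python 3.11.15, numpy 2.4.6, scipy 1.17.1, pandas 2.3.3 and matplotlib 3.10.9 were used.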

Additional observations from a re-analysis of the deposited data

How the results depend on the processing

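No value has a replicate check, and no paired analysis was possible because each label has 1 library and no column is tied to it. Counts of called genes are given higher then lower, in the order DN2/DN3-like, gamma-delta T-like, early T progenitor-like and all other cells. At 2-fold they were 791 and 633, 485 and 762, 1482 and 1314, and 2030 and 1434. At 1.5-fold they were 1589 and 1371, 1276 and 1391, 2707 and 2269, and 3256 and 2261. At 4-fold they were 259 and 151, 117 and 213, 366 and 423, and 950 and 438. With at least 50 UMIs per gene fewer genes were measured, so these counts are not over the same genes. Those that moved by over 1.5 times were 414 and 333 of 4780 genes and 259 and 436 of 6121. The main setting measured 7249 and 8346 genes in those 2 comparisons. The others that moved were 938 higher against early T progenitor-like cells and 1196 higher against all others. At 2-fold and at least 20 UMIs per gene, the higher counts against these groups can include genes with no UMI in the Cd8b1 cells. Those genes entered as 3 counts and were not counted separately. With the mean over cells of CPM, in which deep cells weigh no more than shallow ones, they were 1408 and 1104, 974 higher against gamma-delta T-like cells and 1986 lower against early T progenitor-like cells. With comparison rules allowed to overlap, an alternative chosen after seeing the data, 1055 of 9260 measured genes were lower than in DN2/DN3-like cells. The share of cells with Cd4 was 27.4% at 2 or more UMIs and 37.3% after thinning. Of the list medians beyond 1 on the log2 scale, 2 changed sign. The innate list against DN2/DN3-like cells was -2.22 without the 9 innate-gene cells, with 0 genes called higher and 4 lower. That list summed to 1822 CPM in all 84 cells and 897 in the 75, against 1074 in DN2/DN3-like cells. Its measured genes can also change, since each needs 20 UMIs over both groups. The B lineage list against all other cells was above 1 with summed counts and -0.22 with the mean over cells of CPM. Of its 8 genes 6 had no UMI in the 84 cells, and any of these that were measured entered as 3 counts. The list summed to 43.1 CPM in the 84 cells against 54.7 in the others, so the positive median does not show higher B lineage transcripts. The cause of either change was not tested. Over all lists, comparisons and settings tried, 586 further medians moved beyond an interval placed around them and 1003 did not. The width of that interval is the counting error of the list's summed UMIs, not of the median. The 1003 include 96 at 1.5-fold and 96 at 4-fold, where a list median cannot change. The centring on the median of all genes shifted ratios against all other cells by 0.14. The 23 DN2/DN3-like cells and the low counts of Cd4, Ptcra and Rag2 limit the depth of what can be seen.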

Other observations

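Some single genes that the report does not describe were higher in the Cd8b1 cells than in gamma-delta T-like and DN2/DN3-like cells. Fas, a death receptor gene, was detected in 38 of 84 cells and stood at 62.3 CPM, against 6.82 in gamma-delta T-like cells (log2 ratio 3.19, 2.37 to 4.10), and it had 1 UMI in the DN2/DN3-like cells. Phlda1 stood at 196 CPM against 14.5 in gamma-delta T-like cells (3.76, 3.22 to 4.33) and 3.51 in DN2/DN3-like cells (5.80, 4.42 to 7.69). Apoe, an apolipoprotein gene, stood at 241 CPM against 4.26 in gamma-delta T-like cells (5.82, 4.92 to 6.91) and 26.4 in DN2/DN3-like cells (3.20, 2.64 to 3.80), and it was detected in 271 of the 687 early T progenitor-like cells.

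Among cytokine signalling genes, the interferon-gamma receptor gene Ifngr1 stood at 245 CPM, between 104 in DN2/DN3-like and 767 in gamma-delta T-like cells. The feedback inhibitor gene Socs1 stood at 154 CPM against 38.7 and 138 in the same order. Of 15 measured glycolysis genes none was called higher against either group and 1 was called lower against each. Gapdh stood at 2460.5 CPM against 1932 and 2235.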
